A study of Rattus norvegicus with 170 samples.

Results

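Pancreatic islet cells carry G protein-coupled receptors that adjust hormone release to nutrients, gut hormones, nerves and neighbouring cells. The genes described here encode 10 of them, *Glp1r*, *Gipr*, *Gcgr*, *Gpr119*, *Ffar1*, *Chrm3*, *Casr*, *Adra2a*, *Sstr3* and *Galr1*, picked by gene symbol from the 24113 genes of a single-cell table of rat islets. When a ligand binds such a receptor, the receptor activates a G protein inside the cell. Receptors coupled to Gs raise cyclic AMP and those coupled to Gq release stored calcium, and in beta cells both routes add to insulin secretion at high glucose. Receptors coupled to Gi or Go lower cyclic AMP and reduce secretion.

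Islets came from wild type male Sprague Dawley rats, 8 weeks of age, and were kept intact in culture for 48 h in RPMI1640 with 10% FBS and 5.5 mM glucose. They received either 0.1% DMSO, the solvent, or 3 μM GNF4877, a small molecule inhibitor of Dyrk1a and Gsk3b studied because it makes beta cells divide. After the culture they were split into single cells with trypsin, the cells were captured on Fluidigm C1 chips, 86 after DMSO and 84 after GNF4877, and their cDNA (SMARTer, Nextera XT) was sequenced in single reads of 50 bp. The labels name neither animals nor replicate cultures or chips. Each treatment therefore counts as 1 sample whose cells are not replicates, no test between treatments was possible, and treatment, chip and sequencing lane cannot be told apart.

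Levels are in RPM, the reads of a gene per 1000000 mapped reads of the cell, with no division by transcript length, so levels of different genes are not compared. Cells had from 241604 to 2499138 mapped reads, with a median of 1208304 after DMSO and 1414725 after GNF4877. Intervals are exact and at 95% confidence (Clopper-Pearson for shares of cells, Poisson for summed reads), and they cover at most counting error. Those of summed reads take each read as independent, which reads copied by PCR are not, so they are too narrow even for that.

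Cells were classed by hormone. A beta cell had 1000 RPM or more of *Ins1* and less than that of *Gcg*, and an alpha cell had the opposite, which gave 56 DMSO and 58 GNF4877 beta cells and 5 DMSO and 18 GNF4877 alpha cells. Both hormones reached 1000 RPM in 22 DMSO cells and in 1 GNF4877 cell. Of the remaining cells, 1 GNF4877 cell held *Sst*, and 3 DMSO and 6 GNF4877 cells reached the limit for none of the 3 hormones.

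The classes carried most of their markers. *Ins1* in beta cells ran from 2502 through a median of 37578 to 147087 RPM after DMSO and from 1248 through 22668 to 184281 RPM after GNF4877. *Gcg* in alpha cells had medians of 409098 and 271660 RPM, while the medians of *Ins1* there were 129 and 24.2 RPM. Of the 7 beta markers that passed a mean of 1 RPM, 6 after DMSO and 7 after GNF4877 were lower by 2-fold or more in alpha than in beta cells, and of the alpha markers 6 of 7 and 7 of 8 were higher. *Mafa*, a defining beta cell factor, was read in 3 of 56 DMSO beta cells and in 0 of 58 GNF4877 beta cells, and *Pdx1* in 50 and 40 cells. Of the 7 beta markers, 2 were higher and 3 lower by 2-fold or more in beta cells after GNF4877. The higher ones were *Iapp* at means of 1672 and 4608 RPM (log2 ratio 1.46) and *Slc2a2* at 1544 and 3094 RPM, just past 2-fold. *Slc30a8* at 416 and 831 RPM was just within it. The lower ones were *Ins2* at 21448.6 and 10144.5 RPM (−1.08), *Nkx6-1* at 11.5 and 4.49 RPM (−1.18) and *Ucn3* at 168 and 82.8 RPM (−1.01). *Nkx6-1* and *Mafa* were at 0 in the alpha cells of both treatments.

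A few libraries stood apart. In 7 cells only 2.65% to 18.9% of the mapped reads fell on the listed transcripts, against 76.4% or more in all others, where the median was 94.1%. They were DMSO cells 48, 73 and 80 and GNF4877 cell 2, which are beta cells, and DMSO cell 91 and GNF4877 cells 5 and 57, which are in none of the hormone classes. Leaving them out kept each of the 8 counts of receptor genes past 2-fold given here within 1.5 times its value, moved each of 40 ratios by less than 1.5 times and left each of 40 shares within its interval. The number of genes read per cell also differed, with medians of 8809 and 7060 in DMSO and GNF4877 beta cells and of 7026 and 5865 in alpha cells. Its part in the differences below was not tested.

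The first comparison asked how the receptor genes differed between beta cells after GNF4877 and after DMSO. *Glp1r* and *Casr* were lower after GNF4877 both in mean level and in the share of cells at 10 RPM or more. *Gcgr* had a higher mean that rested on single cells, and *Galr1* a lower mean from few cells. Of the 9 receptor genes that had a mean of 1 RPM or more over the 2 groups, 1 was higher and 3 were lower by 2-fold or more. Among the 13261 genes that passed this filter, 11% were higher and 17.0% lower by as much. The count of 1 higher gene is near that background and says nothing particular about the receptors, and the count of 3 lower genes is above it in a list of only 9. The median log2 ratio was −0.13 for the receptor genes and −0.08 for all genes.

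Among the Gs-coupled receptors, *Glp1r* encodes the receptor for glucagon-like peptide 1, an incretin hormone of the gut. It was read in 54 of 56 DMSO beta cells (96.4%, interval 87.7% to 99.6%), from 0 through a median of 70.8 RPM to 1216 RPM. After GNF4877 it was read in 56 of 58 cells (96.6%, 88.1% to 99.6%), from 0 through 5.72 RPM to 407 RPM. Nearly every beta cell of both treatments thus held a read, the GNF4877 cells were mostly the lower ones, and the ranges overlapped. A read alone did not set beta cells apart, because *Glp1r*, of which alpha cells are known to hold little, was also read in 5 of 5 DMSO and 16 of 18 GNF4877 alpha cells. Median mapped reads were 1182925 and 1420597 in beta cells and 961560 and 1388773 in alpha cells of the 2 treatments. At 10 RPM or more, *Glp1r* was found in 44 DMSO beta cells (78.6%, 65.6% to 88.4%) and 23 GNF4877 beta cells (39.7%, 27% to 53.4%), and the intervals did not overlap. The summed reads were 7862 (interval 7689 to 8038), of which DMSO cell 36 gave 1618, and 3453 (3339 to 3570). The means were 121 and 40.1 RPM, a log2 ratio of −1.57 that ranged from −1.81 to −1.31 when any 1 cell was left out. With every cell thinned to 100000 reads on listed transcripts, *Glp1r* was read in 49 of 54 DMSO cells (90.7%, 79.7% to 96.9%) and 30 of 57 GNF4877 cells (52.6%, 39% to 66%).

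*Gipr*, the receptor for the other incretin, glucose-dependent insulinotropic polypeptide, was read in 39 DMSO beta cells (69.6%, 55.9% to 81.2%) and 29 GNF4877 beta cells (50.0%, 36.6% to 63.4%). Its values after DMSO ran from 0 through a median of 8.47 RPM to 446 RPM. After GNF4877 they ran from 0 through 0.289 RPM to 571 RPM. Fewer cells held the gene after GNF4877, while the cells that held it reached higher, and the ranges overlapped over most of their length. The log2 ratio of the means, 77.6 over 56.1 RPM, was 0.46, and the difference of the mean log2 level per cell had the opposite sign, −0.54. On that measure the median of all genes in beta cells was −0.42, with 1.92% of them higher and 22% lower by 2-fold or more. *Gpr119*, which responds to lipid amides such as oleoylethanolamide, was read in 20 beta cells of each treatment, 35.7% of the DMSO cells and 34.5% of the GNF4877 cells. Its highest values were 267 and 622 RPM and both medians were 0, so shares were alike and the upper ends differed. The log2 ratio of its means was 0.92, within 2-fold, and it passed 2-fold without DMSO cell 15 (1.04), 63 (1.16), 72 (1.09) or 96 (1.34), and with thinning to 100000 reads (1.06).

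*Gcgr*, the glucagon receptor, was read in 23 DMSO beta cells (41.1%, 28.1% to 55%) and 18 GNF4877 beta cells (31%, 19.5% to 44.5%). The median was 0 in both, and the highest cells had 224 RPM after DMSO and 1030 RPM after GNF4877. At 10 RPM or more there were 11 cells in each treatment, so the treatments differed in a few high cells and not in how many cells carried the gene at that level. The means of 17.3 and 46.4 RPM gave a log2 ratio of 1.37. Without GNF4877 cell 72 (1030 RPM) it was 0.72 and without GNF4877 cell 25 (841 RPM) it was 0.87, both within 2-fold. The difference of the mean log2 level per cell was −0.18, below 0 and above the median of all genes on that measure (−0.42).

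Of the Gq-coupled receptors, *Ffar1*, a sensor of long-chain fatty acids, was found at 10 RPM or more in 20 DMSO beta cells (35.7%, 23.4% to 49.6%) and 9 GNF4877 beta cells (15.5%, 7.35% to 27.4%). Values ran from 0 through a median of 0 to 156 RPM after DMSO and to 225 RPM after GNF4877. Fewer GNF4877 cells carried *Ffar1* at that level, although the intervals of the shares overlapped and the highest cell was a GNF4877 cell. The log2 ratio was −0.66, and without GNF4877 cell 11 it was −1.30 and without GNF4877 cell 19 it was −1.07, past 2-fold. *Casr*, the receptor for calcium outside the cell, was read in 22 DMSO beta cells (39.3%, 26.5% to 53.2%) and 10 GNF4877 beta cells (17.2%, 8.59% to 29.4%). Its highest cells had 350 RPM after DMSO and 145 RPM after GNF4877, and both medians were 0. Both the share of cells and the upper end were therefore lower after GNF4877, with overlapping ranges. At 10 RPM or more the counts were 18 cells (32.1%, 20.3% to 46%) and 6 cells (10.3%, 3.89% to 21.2%), whose intervals overlapped slightly. The log2 ratio of the means, 7.24 over 37.1 RPM, was −2.21, with a range from −2.71 to −1.98 when any 1 cell was left out. It was −1.45 with a pseudocount of 10 RPM in place of 1 RPM, −1.40 as a difference of mean log2 levels and −3.51 with 10000 RPM of *Ins1* required. In cells thinned to 100000 reads, *Casr* was read in 18 of 54 DMSO cells and 6 of 57 GNF4877 cells. *Chrm3*, the acetylcholine receptor of islet beta cells, had 27 reads in 6 DMSO cells and 8 reads in 2 GNF4877 cells, never reached 10 RPM in a beta cell and did not pass the filter in any comparison.

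Of the receptors coupled to Gi or Go, *Sstr3* answers to somatostatin from delta cells. It was read in 30 DMSO beta cells (53.6%, 39.7% to 67%) and 26 GNF4877 beta cells (44.8%, 31.7% to 58.5%). Values ran from 0 through a median of 0.712 RPM to 310 RPM after DMSO and from 0 through 0 to 689 RPM after GNF4877. Shares overlapped, and the highest cells were GNF4877 cells. The log2 ratio was 0.98, just within 2-fold, and leaving out any 1 cell gave from 0.73 to 1.21, the highest without DMSO cell 52. It was 1.14 without the cells that held 1000 RPM or more of *Sst* or *Ppy* and 1.01 with RPM over the reads on listed transcripts, while the difference of mean log2 levels was −0.22, below 0 and above the −0.42 of the median gene. *Adra2a*, the adrenaline receptor that holds back insulin secretion, was found at 10 RPM or more in 11 cells of each treatment (19.6% and 19%), with highest values of 159 and 202 RPM and a log2 ratio of −0.13, which ranged from −0.58 without GNF4877 cell 12 to 0.18 without DMSO cell 58. *Galr1*, a receptor for the nerve peptide galanin, was read in 5 DMSO beta cells (8.93%, 2.96% to 19.6%) and 2 GNF4877 beta cells (3.45%), up to 75 and 38.3 RPM. Nearly all beta cells were thus at 0 for *Galr1*. Its log2 ratio of −1.21 became −0.64 without DMSO cell 10, −0.95 without DMSO cell 45 and −0.98 without DMSO cell 64, and −1.91 without GNF4877 cell 13. It was −0.28 with a pseudocount of 10 RPM in place of 1 RPM, −0.28 as a difference of mean log2 levels and −0.83 with thinning to 100000 reads, all within 2-fold, and −2.01 with 10000 RPM of *Ins1* required.

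**Figure D1:**
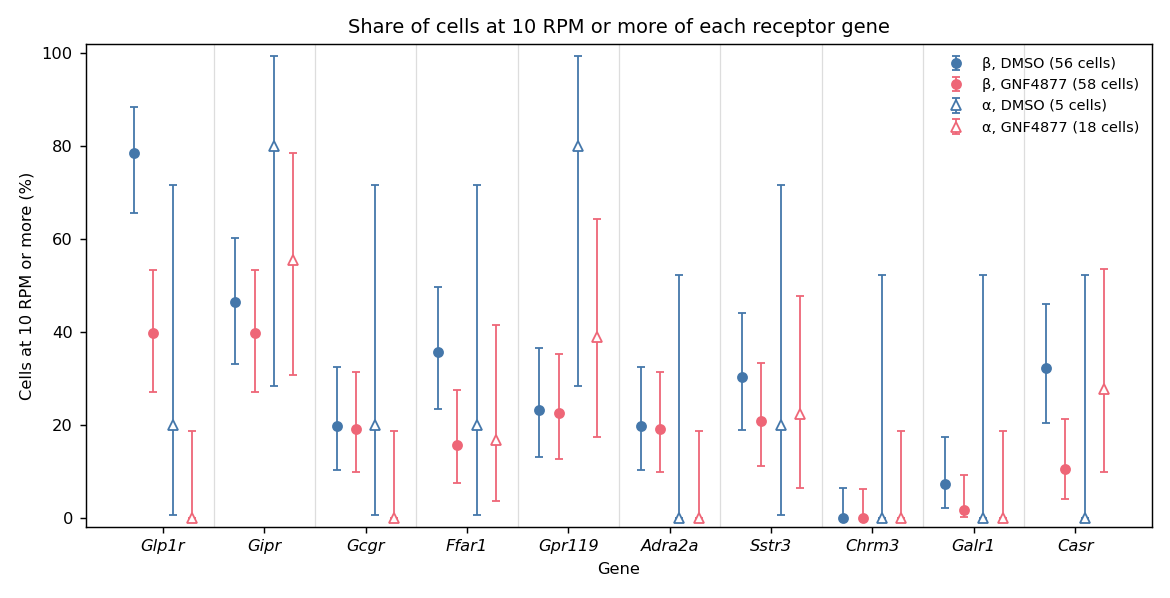
Share of cells (vertical axis, percent) at 10 RPM or more of each receptor gene (horizontal axis) in beta cells (filled circles) and alpha cells (open triangles) after DMSO (blue) and GNF4877 (red), with exact 95% intervals as bars. For *Glp1r* the beta cells stand at 78.6% after DMSO and 39.7% after GNF4877, and the alpha cells at 20% and 0%.

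Beta cells also differed in how many of the receptor genes each one carried. The median number of receptor genes with a read was 4.5 in DMSO beta cells, with a range from 1 to 8, and 3 in GNF4877 beta cells, with a range from 1 to 7. At 10 RPM or more, 3 or more of the genes were found in 30 DMSO cells (53.6%, 39.7% to 67%) and 17 GNF4877 cells (29.3%, 18.1% to 42.7%). The intervals overlapped slightly, and none of the 10 genes reached it in 5 DMSO and 9 GNF4877 cells. Thinned to 100000 reads, 3 or more were read in 32 of 54 and 21 of 57 cells. At full depth and with any read counted, 3 or more were read in 42 cells of each treatment, 75% of the DMSO cells and 72.4% of the GNF4877 cells. The shares with 3 or more genes were thus apart at 10 RPM or more and close for any read, and the differences were not tested.

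Pairs of receptors were counted at 10 RPM or more. *Glp1r* and *Gipr* met in 22 of 56 DMSO beta cells, where 44 carried the first and 26 the second, and the product of those shares would give 20.4 cells. After GNF4877 they met in 11 of 58 cells, with 23 cells for each gene and a product of 9.12 cells. Both incretin receptors were thus found together about as often as their separate shares give. All 11 DMSO beta cells with *Gcgr* also had *Glp1r*, which 44 of the 56 cells carried. *Gipr* and *Gpr119* met in 10 GNF4877 cells, beside a product of 5.16 cells, and *Ffar1* and *Casr* in 11 DMSO cells, beside 6.43 cells. For *Gipr* with *Gpr119* and *Ffar1* with *Casr* the joint counts were above the products. Most other pairs are not given here, and some lay below their product, such as *Glp1r* with *Sstr3* in GNF4877 beta cells. The cells differ in depth and in genes read, whose part in the joint counts was not tested.

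The cell-cycle gene *Ccnb1* was read in 18 GNF4877 beta cells and not in 40, and *Glp1r* was at 10 RPM or more in 6 of the former (33.3%, 13.3% to 59%) and 17 of the latter (42.5%, 27% to 59.1%). *Gipr* was at that level in 10 (55.6%, 30.8% to 78.5%) and 13 (32.5%, 18.6% to 49.1%), and for both genes the intervals overlapped. The shares were 33.3% and 12.5% for *Gcgr*, 33.3% and 17.5% for *Gpr119* and 11.1% and 25% for *Sstr3*. Their intervals also overlapped. *Ffar1* and *Adra2a* had larger shares in the cells with *Ccnb1*, and *Casr* and *Galr1* smaller ones. The cells with *Ccnb1* had a median of 7369.5 genes read, against 6913 in the others. The part of this difference was not tested.

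The next comparisons set alpha cells against beta cells within each treatment. *Glp1r* was lower and *Gpr119* higher in alpha than in beta cells of both treatments, and *Gcgr* and *Adra2a* were lower in both, *Adra2a* with 1 read in 23 alpha cells. *Gipr*, *Ffar1*, *Sstr3* and *Galr1* passed 2-fold within 1 treatment, and *Casr* in opposite directions in the 2 treatments. Within DMSO, 9 receptor genes passed the filter, of which 2 were higher and 6 lower by 2-fold or more in alpha cells, beside 12.9% and 45.6% of 12855 genes. Within GNF4877, 8 passed, of which 3 were higher and 3 lower, beside 13.8% and 33.5% of 12812 genes. Within GNF4877 the count of lower genes is near its background, and the other 3 counts are above theirs, in lists of only 9 and 8 genes. By the difference of mean log2 levels, 3 were lower within DMSO, beside 30.6% of all genes. With thinning to 100000 reads, 1 was higher within GNF4877, beside 13.7%. These counts are near their backgrounds. The median log2 ratio of all genes was −0.81 within DMSO and −0.42 within GNF4877. It was −1.99 for the receptor genes within DMSO and −0.37 within GNF4877. With the 3 genes at 0 in DMSO alpha cells set to a floor of 3 reads over that group, the value within DMSO was −2.14. With RPM taken over the reads on listed transcripts, the median of all genes within DMSO moved to −0.94.

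*Glp1r* in the 5 DMSO alpha cells was 43.6 RPM in cell 33, which also held 1672 RPM of *Sst*, 9.39 RPM in cell 67, 6.24 RPM in cell 89, 2.96 RPM in cell 90 and 4.17 RPM in cell 94. The 18 GNF4877 alpha cells ran from 0 through a median of 2.34 RPM to 9.48 RPM. Reads of *Glp1r* were present in most alpha cells at low level, and 1 of 23 reached 10 RPM. The share at 10 RPM or more was 0 of 18 after GNF4877, where the interval reaches 18.5%. The log2 ratio of alpha over beta means was −3.09 within DMSO, or −4.19 without alpha cell 33, and −3.34 within GNF4877. As a difference of mean log2 levels it was −2.37 and −1.70.

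*Gpr119* went the other way. The DMSO alpha cells 33, 67, 89, 90 and 94 held 220, 17.2, 0, 412 and 425 RPM of it. After GNF4877 the alpha cells ran from 0 through 0.527 RPM to 386 RPM, and 7 of 18 were at 10 RPM or more (38.9%, 17.3% to 64.3%). Of the 5 DMSO alpha cells 4 were above the median beta cell, which was at 0, and 2 passed the highest DMSO beta cell at 267 RPM. The means gave a log2 ratio of 3.58 within DMSO and 1.05 within GNF4877. The GNF4877 value fell within 2-fold without alpha cell 8 (0.83), 27 (0.74), 58 (0.97) or 66 (0.61). It was also within 2-fold with a pseudocount of 10 RPM (0.89), with 10000 RPM of the hormone required (0.82), with thinning to 100000 reads (0.80), without cells rich in *Sst* or *Ppy* (0.81) and with RPM over listed reads (0.99).

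*Gipr* was 15.7, 146, 1095, 0 and 448 RPM in the same 5 DMSO alpha cells. In the GNF4877 alpha cells it ran from 0 through a median of 11.2 RPM to 173 RPM, with 10 of 18 at 10 RPM or more (55.6%, 30.8% to 78.5%). The level was high in 3 DMSO alpha cells, and the GNF4877 alpha cells lay in the lower part of the range of GNF4877 beta cells, which reached 571 RPM. The log2 ratio of alpha over beta means was 2.58 within DMSO, 1.42 without cell 89, and −0.99 within GNF4877, which reached −1.31 in the lowest case of leaving out 1 cell and passed 2-fold under 6 other settings, with −1.27 without cells rich in *Sst* or *Ppy* as the lowest. The difference of mean log2 levels within GNF4877 was 0.35, in the other direction and beside −0.27 for the median gene, and the share of cells at 10 RPM or more was also higher in alpha cells than the 39.7% of beta cells. *Gcgr* was 8.71 RPM in cell 33, 17.8 RPM in cell 90 and 0 in the other 3 DMSO alpha cells, and it was read in 0 of 18 GNF4877 alpha cells, where the interval reaches 18.5%. Its log2 ratio within DMSO was −1.54 and became −2.53 without cell 90. With a pseudocount of 10 RPM it was −0.84, as a difference of mean log2 levels −0.19 and with the highest transcript in place of the sum −0.94, all within 2-fold. Folds set against a floor of 3 reads over a group leave out the spread between cells of the other group. Within GNF4877 *Gcgr* was 360-fold lower in alpha cells against that floor (0.129 RPM). In beta cells that level rested partly on GNF4877 cell 72, without which the log2 ratio with the pseudocount went from −5.57 to −4.92. It was −2.50 with a pseudocount of 10 RPM and −1.51 as a difference of mean log2 levels.

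For the Gq-coupled receptors, *Casr* was read in 0 of 5 DMSO alpha cells, which leaves an interval up to 52.2%, and in 5 of 18 GNF4877 alpha cells (27.8%, 9.69% to 53.5%). These 5 were cell 66 with 836 RPM, cell 69 with 585 RPM, cell 8 with 178 RPM, cell 85 with 173 RPM and cell 94 with 13.2 RPM. The highest 2 lay above each beta cell of either treatment. The interval of 0 of 5 cells contains the 39.3% of DMSO beta cells with a read. *Casr* was 55-fold lower in alpha than in beta cells within DMSO, against the floor of 0.675 RPM, with a difference of mean log2 levels of −2.06. Its log2 ratio was 3.60 within GNF4877 and 2.79 without cell 66. As a difference of mean log2 levels that within GNF4877 was 1.43. *Ffar1* was 2.35 RPM in DMSO alpha cell 67, 43.1 RPM in cell 94 and 0 in the others. After GNF4877 it ran from 0 through 0 to 206 RPM in alpha cells and 3 of 18 were at 10 RPM or more (16.7%, 3.58% to 41.4%). The shares of *Ffar1* overlapped those of beta cells. Its log2 ratio was −0.72 within DMSO, −3.39 without cell 94, and 1.30 within GNF4877, which fell within 2-fold without cell 59 (0.61) or 66 (0.54) and was 1.94 without beta cell 11. It was 0.84 with a pseudocount of 10 RPM, 0.47 as a difference of mean log2 levels, 0.62 with thinning to 100000 reads and 0.66 without cells rich in *Sst* or *Ppy*. *Chrm3* was read in none of the 23 alpha cells.

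Of the receptors coupled to Gi or Go, *Adra2a* was read in 0 of 5 DMSO alpha cells and had a single read in GNF4877 alpha cell 7 (0.675 RPM). It was 18.8-fold lower in alpha than in beta cells within DMSO, against the floor. Within GNF4877 it was 267-fold lower, with the beta mean set against 1 read over all mapped reads of the alpha cells. The interval from 47.9 to 10548 covers the counting of that read alone. With the pseudocount the log2 ratios of *Adra2a* were −3.78 and −3.59, and as differences of mean log2 levels they were −1.37 and −1.01. The interval of 0 of 5 cells reaches 52.2% and contains the 32.1% of DMSO beta cells with a read, so within DMSO a difference in that share was not detectable. *Sstr3* was 0.871 RPM in DMSO alpha cell 33, 7.28 RPM in cell 89, 25 RPM in cell 94 and 0 in cells 67 and 90. In the GNF4877 alpha cells it ran from 0 through 0 to 651 RPM, with 4 of 18 at 10 RPM or more (22.2%, 6.41% to 47.6%). The high *Sstr3* cell, GNF4877 cell 59, also held 15428 RPM of *Ppy*, the hormone of PP cells. The log2 ratio of *Sstr3* was −2.17 within DMSO, −3.49 without cell 94, −0.46 as a difference of mean log2 levels, and 0.25 within GNF4877, where it was −0.54 without cell 59. *Galr1* was read in no alpha cell. Its log2 ratio within DMSO was −1.99, or −0.38 with a pseudocount of 10 RPM and −0.41 as a difference of mean log2 levels, and without beta cell 10 it did not pass the filter. The interval of 0 of 5 alpha cells contains the 8.93% of DMSO beta cells, so a difference in *Galr1* was not detectable with this number of cells.

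**Figure D2:**
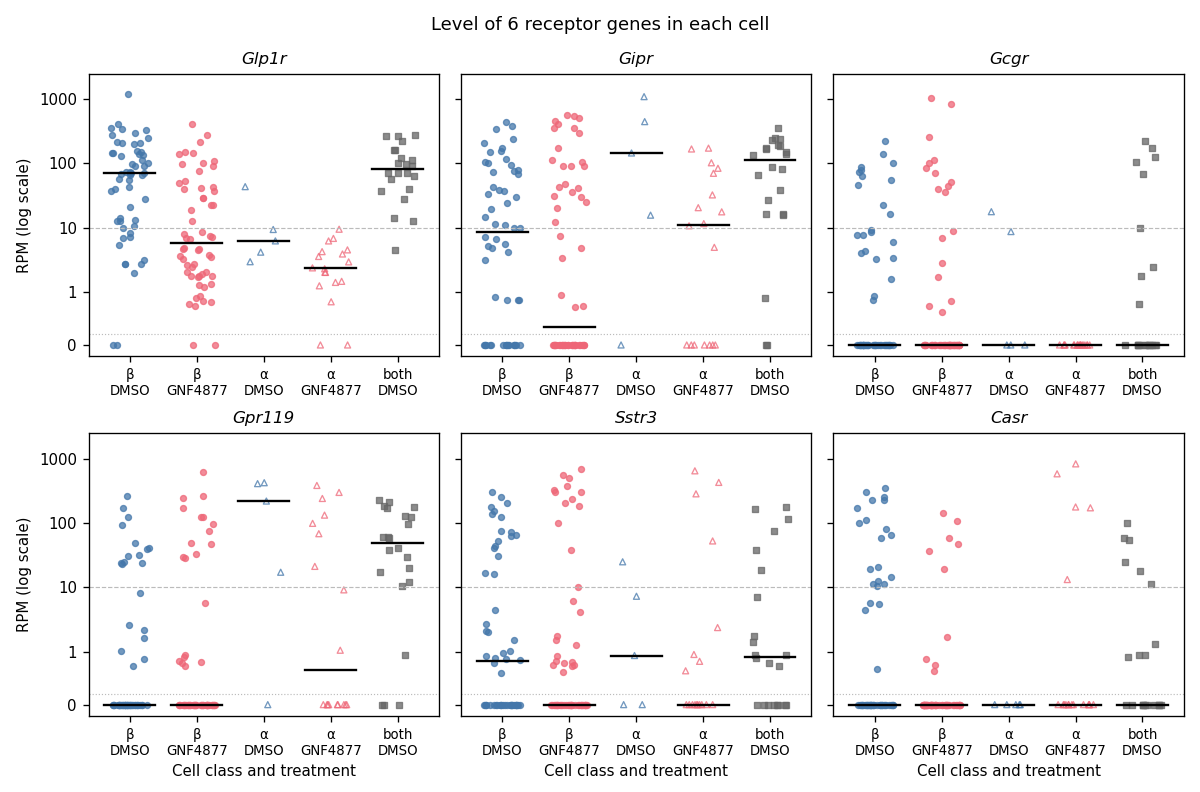
Level of 6 receptor genes (vertical axis, RPM on a log scale, with cells at 0 placed in the strip under the dotted line) in each beta, alpha and both-hormone cell after DMSO and GNF4877 (horizontal axis). Each point is 1 cell, black bars are medians and the dashed line is 10 RPM, and the median of *Glp1r* is 70.8 RPM in DMSO and 5.72 RPM in GNF4877 beta cells.

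Alpha cells after GNF4877 were also set against the 5 alpha cells after DMSO. The incretin receptor genes *Glp1r* and *Gipr* were lower after GNF4877, as were *Gcgr* and *Gpr119*, and *Ffar1*, *Sstr3* and *Casr* had higher means that came from a few cells. Of the 7 receptor genes that passed the filter, 3 were higher and 4 lower by 2-fold or more, beside 34.9% and 23.8% of 11889 genes. With only 5 DMSO cells, most of the tested genes passed 2-fold in 1 direction or the other, and 7 of 7 receptor genes are read against that. The median log2 ratio was −1.60 for the receptor genes, also with those at 0 set to the floor of 3 reads, and 0.27 for all genes.

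*Glp1r* had means of 13.3 and 3.07 RPM in DMSO and GNF4877 alpha cells, a log2 ratio of −1.81, and of −0.72 without DMSO cell 33. It was −0.83 with a pseudocount of 10 RPM and −0.66 without cells rich in *Sst* or *Ppy*. *Gipr* had means of 341 and 38.7 RPM, a log2 ratio of −3.11, and of −1.95 without DMSO cell 89. A *Gipr* read was found in 4 of 5 and 11 of 18 cells, and with 1 sample of each treatment a difference in that share could not be tested. *Gpr119* had means of 215 and 70.0 RPM and a log2 ratio of −1.60. *Gcgr* was 41.1-fold lower after GNF4877 against the floor, from 16 reads in 2 DMSO cells. Its log2 ratio with the pseudocount was −2.65, or −1.67 without DMSO cell 90 and −0.61 with a pseudocount of 10 RPM, and the difference of mean log2 levels was past 2-fold.

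Means of the other receptor genes that passed 2-fold were higher after GNF4877. *Casr* was 147-fold higher, against the floor of 0.675 RPM in the DMSO alpha cells, from 5 of 18 GNF4877 cells. Its log2 ratio with the pseudocount was 6.65, or 5.83 without GNF4877 cell 66. It was 3.45 with a pseudocount of 10 RPM and 2.09 as a difference of mean log2 levels. A *Casr* read was found in 0 of 5 DMSO and 5 of 18 GNF4877 alpha cells. With 1 sample of each treatment this difference could not be tested. *Sstr3* had a log2 ratio of 3.39, or 2.61 without GNF4877 cell 59 and 4.72 without DMSO cell 94, and a difference of mean log2 levels of 0.27. *Ffar1* had a log2 ratio of 1.36, which was 0.67 without GNF4877 cell 59, 0.60 without GNF4877 cell 66 and 4.03 without DMSO cell 94. It was 0.87 with a pseudocount of 10 RPM, 0.06 as a difference of mean log2 levels, 0.65 with thinning to 100000 reads and 0.46 without cells rich in *Sst* or *Ppy*.

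At 10 RPM or more, *Gipr* and *Gpr119* met in 3 of the 5 DMSO alpha cells and each of the 5 had at least 1 of them. After GNF4877, 10 of 18 alpha cells had *Gipr* and 7 had *Gpr119*. Of the 18, 2 had both, 15 had at least 1 and 3 had neither. The median alpha cell had reads of 4 receptor genes after DMSO, with a range from 3 to 5, and of 3 after GNF4877, with a range from 1 to 5.

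Markers of other cell types moved with these comparisons. In beta cells, 7 of 7 mesenchymal markers were lower after GNF4877, with a summed mean of 371 RPM after DMSO and 0.902 RPM after GNF4877, where *Lum* was at 0. *Col1a1* gave the largest part of the DMSO sum, 117 RPM. The median DMSO beta cell had 0.859 RPM in all, and without DMSO cell 46 (12025 RPM) the sum was 159 RPM. Both PP markers were lower in GNF4877 beta cells. They summed to 2998 and 759 RPM in beta cells, with medians of 2.54 and 3.13 RPM, and to 19.1 and 1313 RPM in alpha cells. *Ppy* gave the larger part of each sum. Without the highest cell of each group, DMSO cell 42 and GNF4877 cell 50, the sums in beta cells were 986 and 43.9 RPM, and without DMSO cell 90 and GNF4877 cell 59 those in alpha cells were 4.57 and 480 RPM. Of 2 immune markers that passed the filter 2 were higher in GNF4877 beta cells. The list sums were 5.20 and 61.7 RPM, *Cd74* gave the largest part of each, and without DMSO cell 23 the DMSO sum was 3.40 RPM. In alpha cells the mesenchymal sum was 1.39 RPM after DMSO, or 0.696 RPM without DMSO cell 94, and 129 RPM after GNF4877, or 0.463 RPM without GNF4877 cell 42. Of the delta markers 1 was higher and 1 lower in beta cells, of 5 duct markers 1 and 1, and of 2 endothelial markers 0 and 2, while no acinar marker passed the filter. In alpha cells after GNF4877 over DMSO, the counts higher and lower were 1 and 2 of 3 delta, 2 and 0 of 2 PP, 3 and 2 of 5 duct, 0 and 1 of 1 acinar, 1 and 0 of 1 endothelial, 4 and 0 of 4 mesenchymal and 1 and 0 of 1 immune markers. Delta markers summed to 380 RPM in DMSO alpha cells, or 26.8 RPM without cell 33, whose *Glp1r* was the highest of its class, and to 167 RPM in GNF4877 alpha cells. In alpha over beta cells within DMSO the counts were 3 and 0 of 3 delta, 0 and 2 of 2 PP, 0 and 1 of 4 duct, 1 and 0 of 1 acinar, 0 and 2 of 2 endothelial, 0 and 7 of 7 mesenchymal and 0 and 1 of 1 immune markers. Within GNF4877 they were 1 and 1 of 2 delta, 1 and 0 of 2 PP, 2 and 1 of 6 duct, 1 and 1 of 2 endothelial, 3 and 0 of 3 mesenchymal and 0 and 2 of 2 immune markers. The part of these markers in the receptor results was not tested, and without the cells that held 1000 RPM or more of *Sst* or *Ppy* the count of receptor genes higher after GNF4877 in beta cells was 2.

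Cells that held both hormones were described apart. In the 22 DMSO cells of this kind, *Glp1r* was read in each one, from 4.43 through a median of 81.7 RPM to 280 RPM, and 21 were at 10 RPM or more (95.5%, 77.2% to 99.9%). *Gpr119* ran from 0 through 49.8 RPM to 233 RPM, with 18 cells at 10 RPM or more (81.8%, 59.7% to 94.8%), and *Gipr* from 0 through 112 RPM to 350 RPM. These cells thus had *Glp1r* in the range of DMSO beta cells together with *Gpr119* in more cells than DMSO beta cells, whose interval of 13% to 36.4% lay below. *Glp1r* and *Gpr119* met at 10 RPM or more in 18 of the 22 cells. These cells had a median of 9094 genes read and of 6 receptor genes read, both above the medians of the other classes, and their part in these shares was not tested. The single GNF4877 cell with both hormones, cell 31, had 2.86 RPM of *Glp1r* and 183 RPM of *Gpr119*.

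Outside these classes, *Glp1r* was below 10 RPM in each cell. GNF4877 cell 49, the *Sst* cell, had 2.54 RPM of *Glp1r* and 19 RPM of *Casr*. Of the cells with none of the 3 hormones, 4 held *Ppy* at 30112 RPM or more. Among these, DMSO cell 29 had 397 RPM of *Gipr* and GNF4877 cell 73 had 496 RPM. GNF4877 cell 62 had 602 RPM of *Sstr3* and GNF4877 cell 33 had 85.4 RPM of *Casr*. High values of receptor genes were thus also found in single cells rich in *Ppy*.

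The table held 81 other receptors named for islets, of which 25 were read in at least 25% of the cells of 1 of the 4 classes by treatment. A further 28 had no read in any cell. In beta cells 3 were higher and 6 lower by 2-fold or more after GNF4877 of 27 that passed the filter, beside 11% and 17% of all genes, with a median log2 ratio of −0.43. In alpha cells 7 were higher and 7 lower of 25, beside 34.9% and 23.8%. Alpha over beta, the counts were 4 higher and 9 lower of 28 within DMSO, beside 12.9% and 45.6%, and 8 higher and 6 lower of 28 within GNF4877, beside 13.8% and 33.5%.

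Of the 25 receptors read most widely, 20 passed the filter in beta cells, and 1 of these was higher and 3 were lower by 2-fold or more after GNF4877, beside 11% and 17% of all genes. *Lgr4*, a receptor for R-spondins, had means of 9.64 and 31.6 RPM after DMSO and GNF4877. *Gpr142*, a sensor of aromatic amino acids, had means of 23.9 and 5.47 RPM, a log2 ratio of −1.95 that was −3.32 without GNF4877 cell 79. *Gabbr2*, a subunit of the GABA receptor, had 21 and 6.06 RPM, and *Cnr1*, a cannabinoid receptor, was just past 2-fold with 3.30 and 1.15 RPM and within it without any 1 of many cells. Those within 2-fold were *Gpr56*, *Gabbr1*, *Cnr2*, *Aplnr*, *Tacr1*, *Npy1r*, *Htr2b*, *Adra2b*, *Gprc5b*, *Adcyap1r1*, *P2ry6*, *P2ry2*, *Gprc5c*, *Vipr2*, *P2ry1* and *Ffar2*. With single GNF4877 cells left out, *Gprc5b*, *Adcyap1r1* and *Vipr2* passed 2-fold, as low as −1.12, −1.02 and −1.64. As a difference of mean log2 levels, where the median gene was at −0.42, *Gprc5b* was past 2-fold at −1.33, *Lgr4* at 0.34 and *Cnr1* at −0.72 were within it, and *Gpr142* at −1.17 and *Gabbr2* at −1.31 were still past it. *Avpr1b*, *Oxtr*, *Adora2a* and *Sctr* did not pass the filter in beta cells, nor did *Adra2b* without GNF4877 cell 78 or *P2ry6* without DMSO cell 69.

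A few of these receptors also bear on the alpha cells. *Cnr2*, a cannabinoid receptor, was read in every beta and alpha cell, with mean levels of 510 and 318 RPM in DMSO and GNF4877 beta cells and 538 and 721 RPM in alpha cells, where the medians were 546 and 345 RPM. In alpha cells its log2 ratio of GNF4877 over DMSO was 0.42, or −0.40 without GNF4877 cell 77 at 6034 RPM. *Avpr1b*, a vasopressin receptor, was read in 3 of 5 and 3 of 18 alpha cells and in 0 of 56 and 0 of 58 beta cells. *Vipr2*, a Gs-coupled receptor for vasoactive intestinal peptide, was the reverse, with reads in 18 and 6 beta cells and in no alpha cell. The interval of 0 of 5 DMSO alpha cells reaches 52.2% and contains the 32.1% of DMSO beta cells with a read. That of 0 of 18 GNF4877 alpha cells reaches 18.5% and contains the 10.3% of GNF4877 beta cells.

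The machinery these receptors act through was counted in lists of genes, to be read beside the 11% of all genes that were higher and the 17% that were lower by 2-fold or more in beta cells after GNF4877. Of 24 genes of the Gs and cyclic AMP route that passed the filter, 0 were higher and 7 lower, with a median log2 ratio of −0.49. *Gnas*, the Gs alpha subunit, had means of 1422 and 1091 RPM after DMSO and GNF4877, *Prkar1a* and *Prkar1b*, regulatory subunits of protein kinase A, 279 and 335 RPM and 150 and 92 RPM, all within 2-fold. On the difference of mean log2 levels, where the median gene was at −0.42 and 22% of genes were lower by 2-fold or more, *Gnas* at −1.13 and *Prkar1b* at −2.36 were past 2-fold. The largest ratios rested on single cells. *Gnb2*, a G protein beta subunit, had 29.9 and 6.77 RPM, a log2 ratio of −1.99 that was −0.97 without DMSO cell 48, 1 of the 7 cells with few listed reads. *Pde3a*, which breaks down cyclic AMP, and *Adcy7*, which makes it, were each read in 2 DMSO cells, with means of 6.20 and 2.44 RPM, and listed at 0 after GNF4877, and neither passed the filter without DMSO cell 59 for the first and DMSO cell 24 or 46 for the second. These 3 genes were within 2-fold on that measure, *Gnb2* at −0.99, *Pde3a* at −0.24 and *Adcy7* at −0.21.

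Of 15 genes of the Gq and calcium route, 2 were higher and 6 lower in beta cells, with a median log2 ratio of −0.29. *Itpr3*, a calcium release channel, had means of 50.6 and 61.4 RPM, and *Plcb1* and *Plcb4*, phospholipases, 53.8 and 43.8 RPM and 36 and 26 RPM, all within 2-fold. For *Itpr3* the log2 ratio was 0.27, or −0.04 without GNF4877 cell 23. *Prkcb*, a protein kinase C, had means of 13.6 and 1.18 RPM, a log2 ratio of −2.75 that was −2.13 without DMSO cell 54 and −3.68 without GNF4877 cell 63. *Gna11*, a Gq-type alpha subunit, had 0.0144 and 4.46 RPM, a log2 ratio of 2.43 and of 1.66 without GNF4877 cell 93. *Plcb3* had 4.05 and 0.0984 RPM and did not pass the filter without DMSO cell 12. Several of the calls in this list thus came from few cells. As differences of mean log2 levels, *Plcb1* at −1.67 and *Plcb4* at −1.19 were lower by more than 2-fold, while *Prkcb* at −0.69, *Gna11* at 0.44 and *Plcb3* at −0.25 were within it.

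Of 11 genes of the Gi and Go route, 1 was higher and 4 lower in beta cells, with a median log2 ratio of −0.60. *Gnai2*, an inhibitory alpha subunit, had means of 249 and 100.4 RPM after DMSO and GNF4877, a log2 ratio of −1.30. *Gnai3*, another, had 164 and 126 RPM and *Gng5*, a G protein gamma subunit, 269 and 190 RPM, both within 2-fold. *Kcnj5* and *Kcnj3* are potassium channels opened by G proteins. *Kcnj5* had 4.66 and 18 RPM, a log2 ratio of 1.75 that was 0.57 without GNF4877 cell 32 and 1.13 without GNF4877 cell 26, and its difference of mean log2 levels was −0.17, beside −0.42 for the median gene. *Kcnj3* had 5.67 and 1.27 RPM, a log2 ratio of −1.56 and of −2.27 without GNF4877 cell 87. On the same measure as for *Kcnj5*, *Gnai3* was past 2-fold at −1.98, *Gnai2* was at −1.65, and *Kcnj3* was within 2-fold at −0.77.

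Among 14 genes that switch receptors off, 1 was higher and 3 lower in beta cells, with a median log2 ratio of −0.36. *Rgs4*, which speeds the turn-off of Gi and Gq, had means of 1190 and 2534 RPM, a log2 ratio of 1.09 that was 0.96 without GNF4877 cell 12 and 0.95 without GNF4877 cell 80. Others of its family were *Rgs17* with 152 and 92.9 RPM, within 2-fold, *Rgs9* with 54.8 and 22 RPM and *Rgs3* with 3.95 and 0.289 RPM. *Adrbk1*, a receptor kinase, had 50.7 and 18.5 RPM. Leaving out any 1 cell kept *Rgs9*, *Rgs3* and *Adrbk1* lower by 2-fold or more. With differences of mean log2 levels, *Rgs17* was past 2-fold at −1.03, *Rgs9* was at −2.72 and *Adrbk1* at −2.11, while *Rgs4* at 0.98 and *Rgs3* at −0.74 were within it.

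Of 7 genes of ligands and their enzymes, 2 were higher and 1 lower in beta cells, with a median log2 ratio of 0.17. *Pcsk1*, a protease that makes peptide hormones, had means of 265 and 256 RPM and *Npy*, a peptide ligand, 152 and 199 RPM, both within 2-fold. For *Npy* the log2 ratio was 0.38, or −0.31 without GNF4877 cell 55, and that of *Pcsk1* was −0.05, or 0.08 without DMSO cell 58. *Pyy*, a gut and islet peptide and 1 of the PP markers, had 109 and 0.433 RPM, a log2 ratio of −6.26 that was −4.91 without DMSO cell 37 and −5.61 without DMSO cell 42. *Tph2*, an enzyme of serotonin synthesis, was read in GNF4877 cell 78 alone. *Dpp4*, the enzyme that cuts the ligands of *Glp1r* and *Gipr*, had means of 0.0376 and 2.94 RPM in beta cells, from 1 and 3 cells, a log2 ratio of 1.92 that was −0.02 and below the filter without GNF4877 cell 96. None of these genes passed 2-fold as a difference of mean log2 levels, with *Pyy* at −0.46, *Tph2* at 0.16, *Dpp4* at 0.12 and *Npy* at −0.96. In alpha cells the *Dpp4* means of 75.8 and 12.9 RPM came from 1 of 5 and 2 of 18 cells.

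In alpha over beta cells within DMSO, where 12.9% of all genes were higher and 45.6% lower, the counts higher and lower were 2 and 13 of 23 for the Gs list, 2 and 8 of 13 for the Gq list, 2 and 4 of 11 for the Gi and Go list, 2 and 6 of 13 for the switch-off list and 1 and 3 of 6 for the ligands. Within GNF4877, beside 13.8% and 33.5%, they were 3 and 5 of 21, 2 and 8 of 14, 1 and 4 of 10, 6 and 5 of 14 and 2 and 3 of 7. In alpha cells after GNF4877 over DMSO, beside 34.9% and 23.8%, they were 5 and 3 of 17, 5 and 5 of 10, 1 and 2 of 9, 5 and 2 of 12 and 1 and 1 of 5. Many of these counts are near the shares of all genes. Some are further above them, in short lists. Within GNF4877 these include the 6 of 14 higher for the switch-off list and the 8 of 14 lower for the Gq list. In alpha cells after GNF4877 over DMSO, each of the 10 genes of the Gq list passed 2-fold in 1 direction or the other.

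For the 3 receptor genes read in 50% or more of the DMSO beta cells, the genes with the most similar pattern were found by Pearson r of log2(RPM + 1) over the 56 cells, among 8275 genes. *Glp1r* was closest to *Ociad2* (r of 0.59), *Slc23a2* (0.57) and *Slc7a2* (0.57), and over the 58 GNF4877 beta cells these were 0.37, 0.08 and 0.25. *Gipr* was closest to *Smpd3* (0.58), *Erap1* (0.57) and *RT1-T24-1* (0.57), whose values over GNF4877 cells were −0.04, −0.04 and 0.05. *Sstr3* was closest to *Vwa5b2* (0.59), *Ric3* (0.52) and *Spock2* (0.47), and then −0.04, 0.29 and −0.16. Since these genes were picked for the highest r in the DMSO cells, lower values in other cells can come from the choice alone. The median r over all genes was 0.18 for *Glp1r*, 0.14 for *Gipr* and 0.07 for *Sstr3*. The cells share 1 treatment and differ in depth, and r with the number of genes read was 0.44 for *Glp1r*, 0.39 for *Gipr* and 0.16 for *Sstr3*.

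Promoters of 9 of the 10 receptor genes were found in the RefSeq promoter table of assembly GRCr8, from 250 bases before to 50 bases after the gene start. The ones printed belong to *Glp1r*, lower in alpha than in beta cells of both treatments, *Gcgr*, without a read in GNF4877 alpha cells, and *Gpr119*, higher in alpha cells of both treatments. They lie at chr20:8973143-8973442 on the plus strand, at chr10:106306553-106306852 on the plus strand (the first of its 2 entries) and at chrX:132736031-132736330 on the minus strand, written 5′ to 3′. Capitals mark TGACG or CGTCA, the core of the cyclic AMP response element on either strand, and TAAT or ATTA, the core bound by homeodomain factors on either strand, and neighbouring matches can overlap. The first motif is in 21.2% and the second in 60.6% of all 33469 promoters of this length.
Glp1r: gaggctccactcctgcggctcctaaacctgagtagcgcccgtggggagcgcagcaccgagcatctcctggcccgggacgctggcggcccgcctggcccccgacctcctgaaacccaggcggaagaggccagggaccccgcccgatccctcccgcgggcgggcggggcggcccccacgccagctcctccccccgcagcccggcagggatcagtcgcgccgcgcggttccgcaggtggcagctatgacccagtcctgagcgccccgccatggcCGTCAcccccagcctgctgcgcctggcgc
Gcgr: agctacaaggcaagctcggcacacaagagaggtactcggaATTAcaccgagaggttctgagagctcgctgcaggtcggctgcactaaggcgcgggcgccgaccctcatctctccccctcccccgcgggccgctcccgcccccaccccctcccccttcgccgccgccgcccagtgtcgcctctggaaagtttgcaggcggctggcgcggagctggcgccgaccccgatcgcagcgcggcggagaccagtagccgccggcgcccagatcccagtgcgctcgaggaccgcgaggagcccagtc
Gpr119: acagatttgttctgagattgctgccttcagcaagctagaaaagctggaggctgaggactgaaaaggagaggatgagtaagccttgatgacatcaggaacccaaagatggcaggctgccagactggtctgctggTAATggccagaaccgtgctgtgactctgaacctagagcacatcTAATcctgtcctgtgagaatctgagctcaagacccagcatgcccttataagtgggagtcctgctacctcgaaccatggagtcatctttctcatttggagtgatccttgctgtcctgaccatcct
The *Glp1r* window had 1 match of the first motif and 0 of the second, *Gcgr* 0 and 1, and *Gpr119* 0 and 2. The *Glp1r* match lies just behind an ATG, in the 50 bases after the gene start. Those 50 bases of the *Gpr119* window begin with an ATG, so its listed gene start may be the start of the coding sequence. Whether these windows act as promoters or the matches are bound was not tested. Bases G and C made up 76%, 71% and 50% of them, beside a median of 51.6% over all promoters. The window of the other *Gcgr* entry, chr10:106307346-106307645 on the plus strand, had no match of either motif and 55.7% of G and C. *Gipr* had no promoter entry, although its transcript was found in the gene table of the same assembly.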

How the data were processed

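Single rat islet cells were sequenced on Fluidigm C1 chips. The authors deposited RPM for each transcript, its reads per 1000000 mapped reads of the cell, after processing whose notes name CASAVA 1.8.2, BWA 0.5.9 and SAMtools 0.1.19. Alignment was to a mouse transcriptome by their methods, but the 27586 transcripts of the table are from rat RefSeq. Cells with fewer than 100000 mapped reads had been left out by the authors. Values at the floor of 0.01 (69.7% of all) were set to 0, and transcripts of a gene were summed. The 12 transcripts of the 10 receptor genes were each found in the gene table of assembly GRCr8. Dividing by the smallest step of each cell gave reads back, and values of 20 reads or fewer were whole to within 0.1 (100% of them).

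Ratios are log2((mean RPM + 1)/(mean RPM + 1)), for genes with a mean of 1 RPM or more over the 2 group means. A group without a read was set against 3 reads over that group, and a group with 1 to 3 reads was set at these over all its mapped reads. Such folds do not cover the spread between cells. Thinning drew 100000 or 300000 reads without replacement (seed 7). The computation ran under Python 3.11.15 with matplotlib 3.10.9, scipy 1.17.1, pandas 2.3.3 and numpy 2.4.6. It was tested on simulated reads drawn around 1 mean per gene, without spread between cells. Such data cannot show calls that rest on single cells. The receptor genes and lists were chosen with earlier results of these data known.

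Named were all 10 receptor genes, other receptors read in 25% or more of the cells of a class, in each pathway list the 3 genes with the highest mean and up to 3 past 2-fold with the largest ratio in beta cells, and the 3 genes of highest r, except 1 receptor that is not reported here. The authors' t-test takes cells as replicates and was not repeated. Alternatives were another pseudocount, filter, hormone limit, depth, scaling or read minimum, cells left out, and the difference of mean log2 levels.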

Additional observations from a re-analysis of the deposited data

How the results depend on the processing

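Over all alternatives, 92 of 104 counts stayed within 1.5 times their value, 424 of 520 ratios moved by no more than 1.5 times, 95 moved further and 1 that was past 2-fold changed sign, and 249 of 280 shares stayed within their interval. In beta cells, the 1 gene higher after GNF4877 became 0 with the difference of mean log2 levels, where *Gcgr* changed sign to −0.18, the median gene was at −0.42 and the share of all genes higher went from 11% to 1.92%. It became 2 with thinning to 100000 reads, with *Sst* or *Ppy* cells left out, and with RPM over listed reads. In alpha cells, the 3 genes higher after GNF4877 became 1 with the difference of mean log2 levels (all genes from 34.9% to 10.8%), and the 4 lower became 2 with a pseudocount of 10 RPM (from 23.8% to 13.9%). For alpha over beta cells, the 6 lower within DMSO became 3 with the difference of mean log2 levels (all genes from 45.6% to 30.6%). The 3 higher within GNF4877 became 1 with a pseudocount of 10 RPM (from 13.8% to 6.32%), with thinning to 100000 reads, and with *Sst* or *Ppy* cells left out. With the last 2 settings 13.7% and 13.5% of all genes were higher. The causes were not tested.

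When each cell was left out in turn, the counts in beta cells ranged from 1 to 3 higher and 2 to 4 lower, and in alpha cells from 2 to 3 higher and 3 to 4 lower. Alpha over beta, they ranged within DMSO from 2 to 2 higher and 5 to 7 lower and within GNF4877 from 1 to 3 higher and 3 to 4 lower. The limit of 10 RPM, the highest transcript in place of the sum, and leaving out cells with few listed reads were chosen after seeing the data. No paired analysis was possible because nothing in the labels matches a DMSO culture to a GNF4877 culture. The 5 DMSO alpha cells limit each comparison that uses them, and a single read is near 1 RPM in most cells.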
